A study of Sus scrofa with 21 samples.

Results

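The blood transcriptome of 11 Large White (LW) pigs was described across genes, without contrast to any other breed. The LW is an outbred commercial breed selected for growth and leanness. The members were the LW arrays among the 21 arrays of the series (11 of 21), chosen by the breed that the labels state. All 11 animals were 60 days old, received no treatment and ate a standard diet without restriction. Total RNA of whole blood, kept in PAXgene tubes, was hybridised in a single colour, with 1 array for each pig. The arrays lay on 3 chips, with 4 LW pigs on chip 1, 4 on chip 2 and 3 on chip 3. The pigs came from 6 litters, of which 5 gave 2 pigs, and littermates were always on different chips. Sex was not in the labels, and no RNA sample was hybridised more than once.

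Whole blood RNA is a mixture. Reticulocytes still carry globin and heme synthesis messages, neutrophils and monocytes carry antimicrobial and phagocytic genes, and lymphocytes carry receptor and antigen presentation genes. White blood cells respond to interferon by raising antiviral genes. In bulk RNA such as this, fewer cells of a type and less RNA per cell cannot be told apart.

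After removal of the dimmest 25% of the probes, 11870 named genes were left. The array brightness of the LW pigs, measured as each array's 75th percentile of signal in log2, ran from 7.37 in LW 07 to 8.62 in LW 05, and 53.04% to 63.8% of the probes were well above background. No spot was saturated. Between the 3 chips, 1914 of the 11870 genes (16.1%) differed (limma, adjusted p under 0.05), a count that fell to 202 without LW 22 and to 426 without LW 18, both on chip 3, and to between 859 and 1124 without LW 12, LW 02, LW 14, LW 09 or LW 04. With litter as a further term, which leaves 3 degrees of freedom, limma called 0 genes, and 2164 (18.2%) had an unadjusted p under 0.05. Spreads are given as SDs within chips, on the log2 scale, with 8 degrees of freedom. Levels are the deposited log2 values.

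The labelled tissue was checked against marker genes. Every measured marker of red cells, T cells, B cells, neutrophils, monocytes, platelets and natural killer cells had a probe well above background on all 11 arrays. CSF3R, PF4 and PRF1 were not named here. Among markers of tissues other than blood, INS (pancreas) and KRT5 (epithelium) were above background on none of the arrays, GFAP (brain) on at most 2, COL1A1 (fibroblasts) on at most 4 and MYH7 (muscle) on at most 5. ALB (liver) reached 10 arrays with the most often detected of its 21 probes, whose brightest mean was 5.16.

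The probes behind the clearest differences between pigs are shown first, because each value below is the light from such a 60-base sequence. Sequences are those of the array design, written 5′ to 3′. Capitals in the FABP6 probes mark the 53 bases that its 3 probes share. The other sequences have no stretch in capitals.
LOC100519082: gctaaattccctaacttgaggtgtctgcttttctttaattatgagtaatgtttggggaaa
OAS1 probe 1: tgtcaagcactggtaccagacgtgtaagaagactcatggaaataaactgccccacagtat
OAS1 probe 2: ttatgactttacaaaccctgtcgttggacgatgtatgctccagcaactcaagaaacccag
REXO2 probe 1: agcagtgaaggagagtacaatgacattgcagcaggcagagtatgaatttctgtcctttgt
REXO2 probe 2: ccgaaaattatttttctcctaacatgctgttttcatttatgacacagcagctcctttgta
CLIP4 probe 1: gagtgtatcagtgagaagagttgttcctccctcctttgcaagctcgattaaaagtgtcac
CLIP4 probe 2: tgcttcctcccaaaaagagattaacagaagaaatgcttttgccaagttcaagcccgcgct
FABP6 probe 1: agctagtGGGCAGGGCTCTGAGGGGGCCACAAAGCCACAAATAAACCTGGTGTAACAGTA
FABP6 probe 2: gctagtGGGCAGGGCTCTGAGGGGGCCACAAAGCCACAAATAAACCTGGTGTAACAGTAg
FABP6 probe 3: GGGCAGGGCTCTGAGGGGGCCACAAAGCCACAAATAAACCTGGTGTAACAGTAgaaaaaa
MYB probe 1: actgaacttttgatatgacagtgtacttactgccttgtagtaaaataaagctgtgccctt
MYB probe 2: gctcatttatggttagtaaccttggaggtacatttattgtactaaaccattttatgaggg

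The brightest genes of LW blood included the red cell genes AHSP, the chaperone of alpha globin, and HBB, the beta globin chain. AHSP ran from 16.18 to 18.48 with a median of 17.87, and HBB from 15.52 to 18.10 with a median of 17.57. The 15 brightest genes also held TMSB10 (an actin-binding thymosin), ACTB (beta actin), FTH1 (the heavy chain of ferritin), RPLP2 (a ribosomal stalk protein), GNLY (granulysin of killer lymphocytes), SLC25A39 (a mitochondrial carrier) and IFNAR2 (an interferon receptor chain). FAM124A, NRTN, AVP, TP23, HNRNPD and LOC648740 completed them, each with a single kept probe. HBB, RPLP2, GNLY, SLC25A39 and IFNAR2 also had a single kept probe each. AVP and TP23 each had a further probe, which was above background on 0 arrays and was removed as dim. A probe's brightness also depends on its sequence, so no order of abundance was read from these values. AHSP still varied by an SD of 0.68, which fell to 0.418 without LW 05, and the SD of HBB was 0.44, or 0.228 without LW 24.

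Most genes varied little among the LW pigs. The 11870 SDs had a median of 0.27 in log2 units, and ran from 0.14 at the 5th percentile to 0.66 at the 95th. An SD above 1 was found for 99 genes (0.834%). Error between spots of the same array was read from 1775 probe sequences that were each spotted on 2 probes. The SD between spots of the same sequence was 0.49 in the dimmest sixth of these pairs and 0.044 in the brightest, while the SD among pigs was 0.50 and 0.28, and the median correlation of the deviations at the paired spots rose from 0.048 to 0.98. Differences among the pigs' arrays were thus measurable for bright genes, and near the spot noise for the dimmest. With 1 array for each pig, a difference between pigs cannot be told apart from a difference between RNA preparations or arrays.

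**Figure D1:**
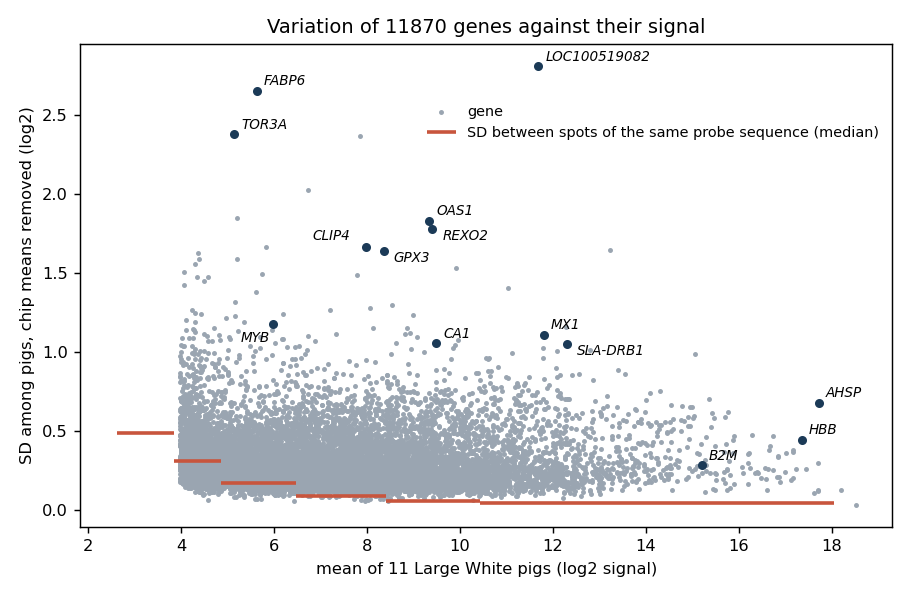
Each grey point is 1 of the 11870 genes, with its mean signal in 11 LW pigs (log2) on the x axis and its SD among pigs after removal of chip means (log2) on the y axis; red lines give the median SD between spots of the same sequence in 6 classes of signal. LOC100519082 and FABP6 lie highest, at SDs of 2.81 and 2.65, and the red lines fall from 0.49 to 0.044.

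Whether a gene varied beyond the disagreement of its own probes was tested with an F ratio of the pigs' mean square over the pig-by-probe mean square (called the probe test below). Of 5419 genes with at least 2 kept probes, 2490 (45.9%) passed at a Benjamini-Hochberg adjusted p under 0.05. Probes with the same sequence are not independent; with such probes averaged, 2006 of 5077 genes passed. Genes with a single kept probe could not be tested. Like the paired spots, the probe test cannot tell a pig from its array.

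LOC100519082, named only by its locus number (chromosome 2, 152490 to 154732, Sscrofa11.1), had the largest SD of all genes, 2.81 (n = 11). LW 04, LW 07, LW 09, LW 18 and LW 24 lay between 14.08 and 14.79, and the other 6 pigs between 9.14 and 9.74. The groups of values were separated by 4.34, a 20.2-fold step, with no pig between. The high pigs came from all 3 chips, and littermates lay on the same side in 4 of the 5 litters with 2 pigs. Its 2 probes have the same sequence, so they do not test the gene with a second sequence.

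OAS1, an oligoadenylate synthetase that senses viral double-stranded RNA (chromosome 14, 38851083 to 38867427), had an SD of 1.83 (adjusted p = 5.21e-06). LW 02 and LW 04 were at 5.43 and 5.75, and the other 9 pigs lay between 8.92 and 11.68. Both probes showed it: the first was at 5.05 and 5.08 in these pigs and at 7.91 or above in the rest, and the second was at 5.81 and 6.42 against 9.93 or above. LW 02 and LW 04 were both on chip 1, where LW 05 and LW 07 were among the high pigs.

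REXO2, a mitochondrial oligoribonuclease (chromosome 9, 41977969 to 41988699), was at 13.04 in LW 07, 12.15 in LW 18 and 11.05 in LW 24, and between 8.04 and 8.97 in the other 8 pigs. Its SD was 1.78 (adjusted p = 1.42e-07), or 1.13 without LW 07. LW 07 and LW 18 were littermates on different chips. PGM1, the glycolytic phosphoglucomutase, was chosen after its values were seen. Its highest pigs were the littermates LW 12 and LW 24, at 9.95 and 9.03, with the next pig at 7.58. Its probes disagreed. In 3 of the 4, of 2 sequences that overlap over most of their length, these pigs were highest, at 9.76 to 10.75. These 3 probes thus read nearly the same stretch. In the remaining probe, of a different sequence, LW 12 and LW 24 were at 7.71 and 6.74, below the 8.62 of LW 09. Littermates were the 2 highest pigs, at least 1 log2 unit above the third, in 4 of 25 genes with such a pair, and the 2 lowest in 0 of 47; 5 of the 55 possible pairs of pigs (9.09%) were littermates. The limma F test over litters, with chip in the model, called 0 of 11870 genes (0%), and 266 genes (2.24%) had an unadjusted p under 0.05. It called 2 genes without LW 12 and 1 without LW 24.

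GPX3, the glutathione peroxidase secreted into plasma, ranged from 5.53 in LW 14 to 10.71 in LW 02 with a median of 8.47 (SD 1.64, adjusted p = 5.34e-05). Its 5 probes disagreed: 3 had SDs of 2.42 to 2.83, and the remaining ones had SDs of 0.33 and 0.52. OAZ3, an inhibitor of polyamine synthesis, ranged from 4.46 in LW 22 to 8.79 in LW 12 with a median of 7.64 (SD 1.26). Its lowest pigs, LW 22 and LW 14, were littermates. SLPI, a secreted inhibitor of neutrophil proteases with 7 probes, ranged from 7.19 to 11.15 with a median of 8.89 (SD 1.12). LY49, a natural killer cell receptor of the lectin family, was at 3.21 to 6.96 and was above background on 6 or 7 arrays. In the deposited values none of these 4 genes had a step of at least 2 log2 units, unlike LOC100519082 and OAS1. With chip means removed, GPX3 lay at 8.94 to 10.14 in LW 02, LW 05, LW 12, LW 15 and LW 24. In the other pigs it lay at 6.01 to 7.52, and littermates were always on the same side.

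Of the genes that passed the probe test with every kept probe above background on at least 6 arrays, the 20 most variable were taken. Genes of identifiable blood functions made up much of these 20. FABP6 (SD 2.65), TOR3A (2.38) and IL20RB (1.84) were outside them. Of the 99 genes with an SD above 1, 25 could be given the probe test. CXCL10 (an interferon-induced chemokine), MX1 (an antiviral GTPase), NPG4 (protegrin 4, an antimicrobial peptide), LTF (lactoferrin), LCN2 (an iron-scavenging lipocalin), CA1 (the red cell carbonic anhydrase), SLA-DRB1 (a class II histocompatibility chain), PSMB8 (an immunoproteasome subunit), CD8B (a coreceptor of killer T cells), CD27 (a lymphocyte receptor) and CD1.1 (a lipid-presenting molecule) all had SDs between 1.02 and 1.23. LGALS7, a galectin, ranged from 4.19 to 8.32 with an SD of 1.04. Single pigs carried part of this: without LW 15 the SD of SLA-DRB1 fell from 1.05 to 0.618 and that of PSMB8 from 1.02 to 0.609, without LW 09 that of LTF fell from 1.05 to 0.505, and without LW 24 those of CD8B and CD1.1 fell from 1.03 and 1.23 to 0.519 and 0.79.

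**Figure D2:**
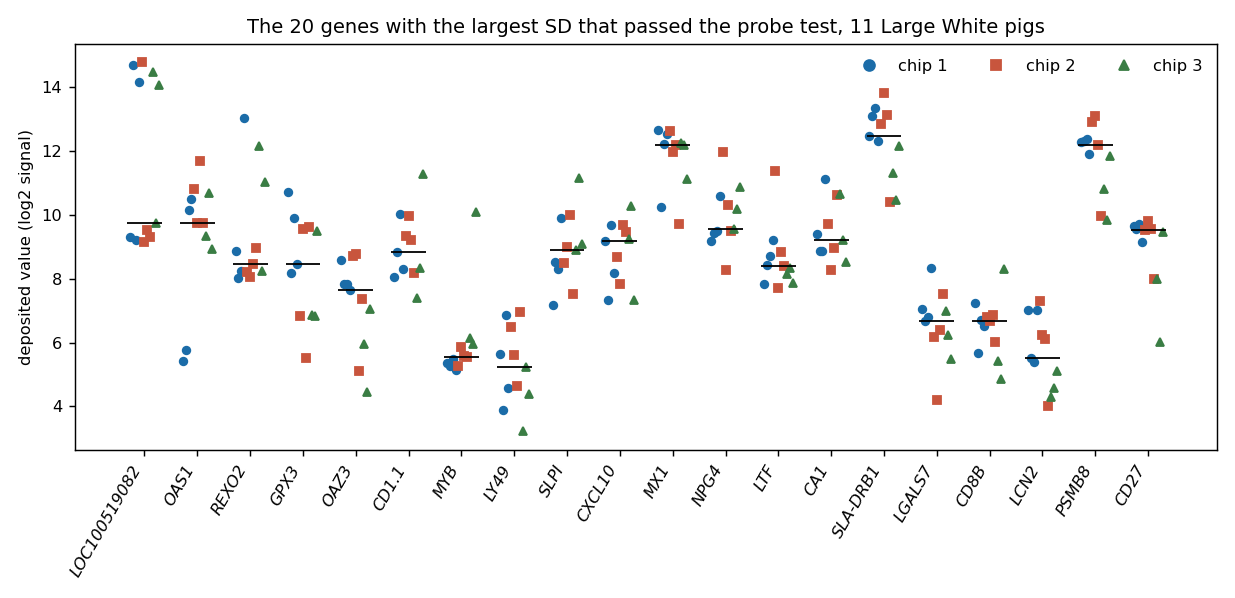
The y axis gives the deposited value (log2 signal) of each of 11 LW pigs for the 20 genes with the largest SD that passed the probe test with every kept probe above background on at least 6 arrays; shape and colour mark the chip, and black lines the median. LOC100519082 leaves a gap between 9.74 and 14.08, OAS1 between 5.75 and 8.92, and MYB has a single pig at 10.08.

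The steadiest genes stood at the other end. GEMIN6 (a part of the machinery that assembles splicing particles), PRR14, CCT2 (a chaperonin subunit), CWC15 (a splicing factor) and BAK1 (a promoter of apoptosis) had SDs between 0.062 and 0.067. GEMIN6 stayed between 7.75 and 8.07, and the SD of PRR14 was 0.0369 without LW 24. None of the 5 passed the probe test (adjusted p between 0.821 and 0.999).

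LW 24 stood apart in more genes than any other pig. A gene was counted when its highest pig lay at least 4-fold (2 log2 units) above the next, a rule set after the values were seen; 97 of 11870 genes met it (0.817%), and LW 24 was that pig in 35 of them (36.1%). The next were LW 07 with 17 and LW 22 with 13, and LW 02 and LW 12 had 0. Most of the genes counted for LW 07 and LW 05 had a single probe that was above background on few arrays. Many of those of LW 24 also had a single probe. Without LW 24, the SDs of FABP6, MYB and IL20RB fell to 0.135, 0.191 and 0.266.

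FABP6, a bile acid binding protein known from the ileum (chromosome 16, 63297594 to 63303675), was at 14.25 in LW 24 and at 4.51 to 5.24 in the other 10 pigs, a gap of 9.02, or 517-fold, to the next pig. Its 3 probes, which overlap as shown above, gave 14.22, 13.96 and 14.57 in LW 24. EPCAM, an epithelial adhesion molecule, was at 8.07 in LW 24 against a highest value of 4.31 elsewhere, and LW 24 was the highest pig for all 15 of its kept probes, which have 15 different sequences. IL20RB, a cytokine receptor chain, was at 11.27 in LW 24 with the next pig at 4.96, and ENPP1, an ectonucleotidase, was at 8.34 with the next at 5.09. These genes were dim in the other pigs, so the size of the gap is set by the background there.

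Several genes of T cell development were also highest in LW 24. In the thymus, MYB keeps progenitors dividing, DNTT and RAG1 rearrange receptor genes, PTCRA forms the receptor of early thymocytes, CD1 molecules mark cortical thymocytes, and SATB1 acts while CD4 and CD8 are expressed together. MYB was at 10.08 in LW 24 and at 5.15 to 6.14 in the rest, PTCRA at 7.31 against 3.61 to 4.44, and DNTT at 6.49 against 3.47 to 4.36. The gap was small for RAG1, at 6.17 against 4.57 to 5.85. CD1E, which did not pass the probe test (adjusted p = 0.259), was at 8.06 against 4.32 to 5.53, NOTCH3 at 7.52 against 4.05 to 5.45 and CCR9, a homing receptor for thymus and gut, at 11.22 against 7.77 to 9.23. These genes are shown because LW 24 was highest in them, so its place above the other pigs follows from that choice. In CD8A, BCL11B, LCK, CD3E, CD3D, CD5 and IL7R, of the same list, LW 24 was not highest.

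Genes that mature T cells carry gave a mixed picture. CD3E was at 11.52, within the 9.89 to 11.82 of the other pigs, CD3D at 8.74 within 7.40 to 9.06, and CD5 and LCK also lay within the others, while CD4, at 7.14 with the next pig at 6.42, CD8B, at 8.29 with the next at 7.23, and LEF1, at 10.90 with the next at 10.12, were highest in LW 24. Of the 21 measured genes of the T cell list, LW 24 was highest in 4 as deposited and in 10 (47.6%) with chip means removed, among them CD3D, CD2, CD27, CD5 and LCK, against 13.4% of all genes. IL7R, the receptor of interleukin 7, was at 5.74 against a median of 6.62. Of 21 measured genes on a list of 24 drawn up after these values were seen, LW 24 was highest in 14 (66.7%) and exceeded the next pig by at least 1 log2 unit in 10. Over all 11870 genes the shares were 9.48% and 0.851%. With chip means removed LW 24 was highest in 15 of the 21. Whether the blood or the RNA of LW 24 differed from that of the other pigs was not tested. LW 24 also had the highest score for the cell cycle list, 0.636. The array of LW 24 had a brightness of 8.04, within the range of the others. It was the dimmest of the 3 LW arrays of chip 3, beside 8.46 in LW 18 and 8.58 in LW 22. The deviations of LW 24 correlated with the GC content of the probes at r = 0.22 over the kept probes, the largest size among the 11 pigs. The kept probes of the 35 genes had a median GC content of 41.7%, equal to that of all kept probes. The part of probe GC content in the result was not tested.

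**Figure D3:**
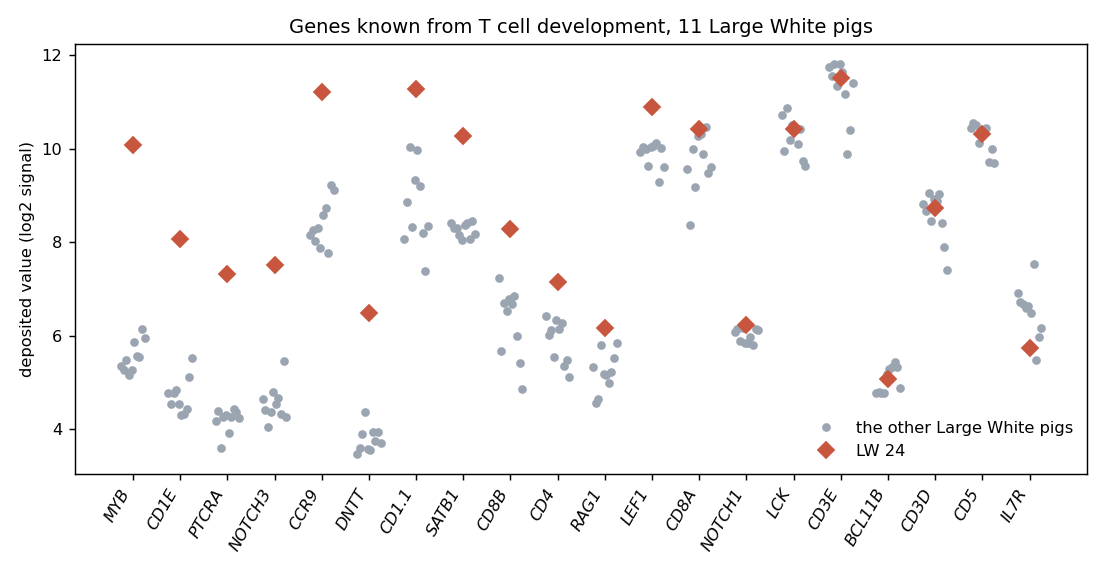
The y axis gives the deposited value (log2 signal) of 20 of the 21 measured genes of the T cell development list, with LW 24 as red diamonds and the other 10 LW pigs as grey points; genes are ordered by the difference of LW 24 from the median of the others. LW 24 lies clear of all other pigs from MYB (10.08) to SATB1 (10.27) and among them for CD3E (11.52).

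Other pigs had a few genes of their own. CLIP4, a microtubule-associated protein, was at 12.75 in LW 15 and at 7.29 to 7.78 in the others. That difference came from a single probe: probe 2 was at 16.46 in LW 15 and at 6.10 to 6.49 elsewhere, while probe 1 stayed between 8.48 and 9.39 in all pigs, and the gene did not pass the probe test (adjusted p = 0.497). NCR3, an activating receptor of natural killer cells with a single probe, was at 6.02 in LW 15 and at 9.12 to 11.07 in the rest. The phospholipase gene PLA2G10 was at 9.01 in LW 12 and at 12.50 to 14.48 in the rest, also on a single probe. In LW 09 the neutrophil gene LTF reached 11.40, with the next pig at 9.21.

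The 13 genes in which LW 22 was highest by this rule included LHX2 (11.78, next pig 7.31), NHLH2 (14.46, next pig 11.99), FOXA2 and FOXC2, transcription factors of embryonic development, each with a single probe. Their probes had a median GC content of 55%, against 41.7% over all kept probes. Over all kept probes, the deviations of LW 22 correlated with GC content at r = -0.132. LW 22 also had the lowest value of the ribosomal gene RPL3, at 8.68 against 10.78 to 13.32, on a single probe. LW 22 lay on chip 3; the part of base composition in these values was not tested.

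Among genes measured near background, the largest SDs belonged to FABP6 and to genes with a single probe. TOR3A, a torsin of the endoplasmic reticulum, was at 8.88 in LW 02, 7.98 in LW 07 and 8.99 in LW 14, well above background in these alone, and at 2.80 to 4.89 in the other 8 pigs. DTL, an adaptor of a ubiquitin ligase used in replication, was at 9.37 in LW 18 and at 4.53 to 4.91 elsewhere. TAGLN, a smooth muscle actin-binding protein, spread from 3.39 to 9.07 with a median of 6.31, and S100A13, a calcium-binding protein, from 3.40 to 7.33. GSX2, PDZD2 and LOC100525808 were highest in LW 24, at 9.08, 8.83 and 7.62. LOC100519918 was highest in the littermates LW 07 and LW 18, at 6.74 and 6.67, with the next pig at 5.49. Single-probe genes could not be given the probe test.

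Most members of the blood cell lists had an SD above the median gene. Counts of members that passed the probe test are read against the 45.9% of all tested genes, SDs against the median of 0.27, and agreement among members as the median r over all pairs of members, against 0.0051 for all pairs of genes. The share that passed varied with the probe filter. It was 60% with only probes well above background on all arrays and 36.1% without the filter on dim probes. The lists were not matched to all genes for signal. By construction 50% of all genes lie above the median SD. A score is the mean over a list's members of the log2 difference from the chip mean.

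Erythroid and heme synthesis genes make the hemoglobin of red cells. Of 30 measured, 27 had an SD above the median of all genes, 11 of 18 tested passed, and the median r was 0.43. CA1 was at 8.29 to 11.13 with a median of 9.23 (SD 1.05), and CA2, another carbonic anhydrase, had an SD of 0.74, or 0.469 without LW 07. ALAS2, the first enzyme of heme synthesis in red cells, was at 9.30 to 11.04 with a median of 10.11 (SD 0.59). LW 07 had the highest score of this list, 0.672, and LW 05 the lowest, -0.353. These were also the pigs with the dimmest and the brightest array.

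Interferon-stimulated genes restrict viruses. Of 37 measured, 34 had an SD above the median of all genes, 24 of 28 tested passed, and the median r was 0.44. MX1 was at 9.71 to 12.68 with a median of 12.21 (SD 1.11, adjusted p = 2.59e-37), with LW 15 and LW 04 lowest. CXCL10 was at 7.33 to 10.27 with a median of 9.18, and RSAD2, the antiviral enzyme viperin, at 8.07 to 10.44 with a median of 9.16. The low pigs differed between genes: OAS1 was lowest in LW 02 and LW 04, MX1 in LW 15 and LW 04, and CXCL10 in LW 24 and LW 04. LW 22 had the highest score, 0.477, and LW 24 the lowest, -0.456.

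B cell genes, which build the antigen receptor, agreed most among the cell type lists. All 7 tested members passed, 15 of 16 measured had an SD above the median of all genes, and the median r was 0.73. CD79A, a signalling chain of the receptor, was at 7.35 to 10.55 with a median of 9.15 (SD 1.00), and CD79B, its partner, at 10.19 to 12.32 with a median of 11.02 (SD 0.79). The surrogate light chain gene VPREB1 had an SD of 0.72, which fell to 0.41 without LW 07. LW 05 (0.497) and LW 12 (0.491) had the highest scores and LW 15 (-0.661) and LW 07 (-0.620) the lowest. LW 05 and LW 12 also had the brightest LW arrays of chips 1 and 2, and LW 07 and LW 15 the dimmest. The part of brightness in these scores was not tested.

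SLA class II genes present peptides to helper T cells, on B cells among others. All 9 tested members passed, all 9 had SDs above the median of all genes (0.43 to 1.05), and the median r was 0.73. SLA-DRA was at 12.08 to 13.99 with a median of 12.69 (SD 0.61), and CD74, the invariant chain, at 9.29 to 11.85 with a median of 10.84 (SD 0.77). LW 15 and LW 07, with the dimmest LW arrays of chips 2 and 1, had the lowest scores, -0.944 and -0.521. LW 05 and LW 12, with the brightest, had the highest, 0.521 and 0.492. SLA class I genes, which most cells carry, were less spread, with a median SD of 0.32 and 5 of 8 passing. B2M, their light chain, stayed between 14.43 and 15.63 (SD 0.28).

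Among T cell genes, 15 of 18 tested passed, 18 of 21 measured had an SD above the median of all genes and the median r was 0.42. CD27 was at 6.01 in LW 22 and CD8B at 8.29 in LW 24, the ends of their ranges. CD3E, the receptor chain, did not pass the probe test (adjusted p = 0.129), and its SD of 0.63 fell to 0.401 without LW 15. LW 24 had the highest score, 0.493. Of the gamma delta T cell list, CD163L1 (a scavenger receptor of the pig's gamma delta cells) and SOX13 had SDs of 0.84 and 0.45, each on a single probe. The SD of CD163L1 was 0.462 without LW 07 and that of SOX13 0.292 without LW 04.

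Cytotoxic and natural killer genes passed in 9 of 11 tested, and 21 of 22 measured had an SD above the median of all genes, with a median r of 0.47. Besides NCR3 (SD 1.53, or 0.531 without LW 15), the lectin receptor KLRB1 ranged from 6.27 to 10.15 with a median of 7.42 (SD 1.49), and KLRC1 and KLRK1 had SDs of 0.94 and 0.85. LW 02 had the highest score, 0.653, and LW 04 the lowest, -0.784.

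Neutrophil genes had the largest median SD of the lists with more than 3 measured genes, 0.60. Of 21 measured, 20 had an SD above the median of all genes, and 9 of 12 tested passed, with a median r of 0.35. NPG4 ranged from 8.27 to 11.98 with a median of 9.56, and the cathelicidins PMAP-36 and PR39 had SDs of 1.14 and 1.07, each on a single probe, and that of PMAP-36 was 0.754 without LW 15. S100A8, a calprotectin subunit, ranged from 9.16 to 11.75 with a median of 9.55 (SD 0.74, or 0.431 without LW 09). ALPL, an alkaline phosphatase of neutrophils, was at 7.84 in LW 07 and at 2.70 to 5.74 in the other pigs, and was above background on 2 arrays. LW 09 and LW 07 had the highest scores, 0.783 and 0.650.

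Monocyte and macrophage genes agreed less, with a median r of 0.23, although 13 of 16 tested passed and 22 of 23 measured had an SD above the median of all genes. LYZ, lysozyme, had an SD of 0.76 and CD14, the endotoxin coreceptor, 0.42. TREM1, an activating receptor, had an SD of 0.83, or 0.544 without LW 15. Among platelet genes 10 of 13 tested passed, with a median r of 0.36. ITGA2B, the platelet integrin, had an SD of 0.59, PPBP, a platelet chemokine, 0.71 and F2R, the thrombin receptor, 0.77, or 0.378 without LW 07. Of the eosinophil, basophil and mast cell list 2 of 3 tested passed, with a median r of 0.12 over 8 genes.

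Lists of genes used in every cell differed in their SDs. Cytosolic ribosomal protein genes had a median SD of 0.24 over 73 genes, below that of all genes, yet a median r of 0.46, and 35 of 47 tested passed. RPLP0, a stalk protein with 14 probes, was at 13.84 to 16.01 with a median of 15.60 (SD 0.31). Nuclear genes of oxidative phosphorylation had a median SD of 0.23 and a median r of 0.29, with 27 of 40 passing. The 13 mitochondrially encoded genes had a median SD of 0.35, above that of all genes, and a median r of 0.70, with 10 of 11 passing. COX1, a subunit of cytochrome oxidase, was at 12.23 to 13.51 with a median of 13.07.

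Cell cycle genes also agreed, with a median r of 0.73 over 20 genes, although only 2 of 8 tested passed (BIRC5, the inhibitor of apoptosis survivin, with an SD of 0.67, was among them). Immediate early and stress response genes had a median r of 0.045 and a median SD of 0.30, and 10 of 17 passed. FOS, the immediate early factor, ranged from 5.83 to 8.06 with a median of 7.42. BTG2, an antiproliferative gene, was at 12.5 in LW 24 and its SD fell from 0.57 to 0.123 without that pig. Of the X-inactivation and Y-linked list, EIF1AY, UTY and DDX3Y were measured, with SDs of 0.22 to 0.28; UTY and DDX3Y were above background on 2 arrays each.

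**Figure D4:**
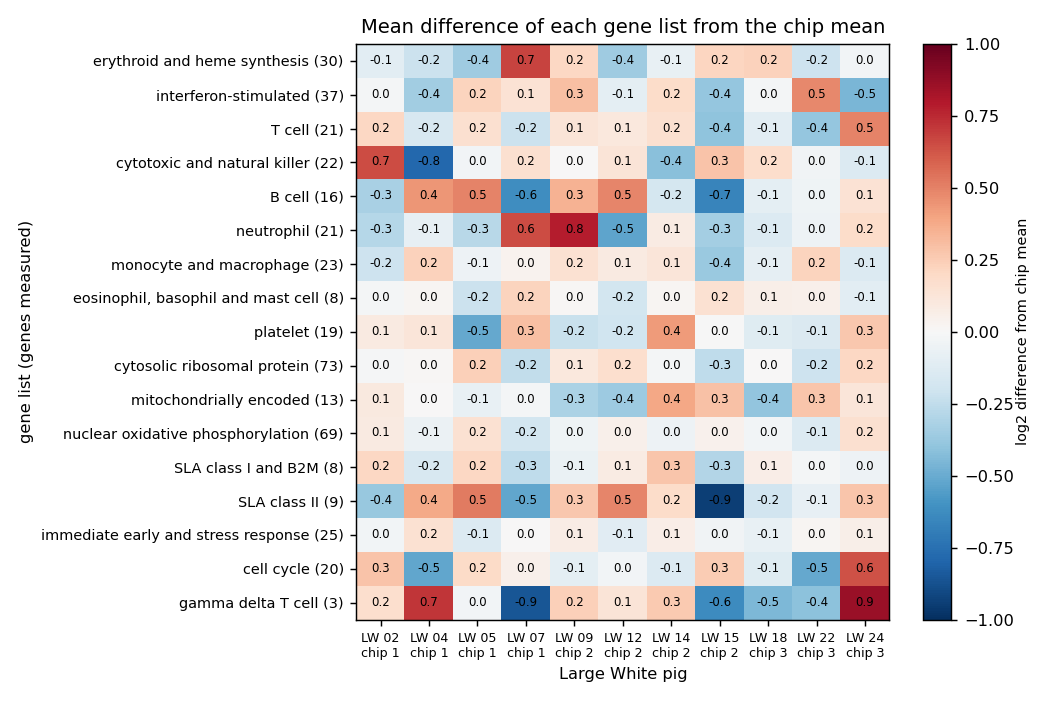
Each cell is the mean log2 difference of a gene list (rows, with the number of genes measured) from the chip mean in 1 LW pig (columns); red is above and blue below. LW 15 is lowest for SLA class II (-0.944), LW 09 highest for neutrophil genes (0.783), and the immediate early list stays within -0.134 and 0.155.

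To ask which cell types varied together, a marker was taken from each of the 18 lists, the first with signal above background on all arrays, and all 153 pairs were compared with an exact permutation of the pigs within chips. No pair passed after Benjamini-Hochberg adjustment (0 of 153, 0%), and 20 pairs had an unadjusted p under 0.05. By Spearman's rho also 0 pairs passed. With the orders possible within chips, a lone pair could reach an adjusted p of 0.0443 at the lowest.

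The lowest p belonged to ALAS2 with SLA-DRA (r = -0.935, exact p = 0.000579, adjusted p = 0.0664; rho = -0.918, exact p = 0.00174, adjusted p = 0.133). The next was ALAS2 with CD79B (r = -0.865, exact p = 0.000868, adjusted p = 0.0664; rho = -0.927, exact p = 0.00174, adjusted p = 0.133). ALAS2 and CD79B each had a single probe, so they could not be given the probe test. Without the pigs farthest from the median of ALAS2, r was -0.862 and -0.756. Pigs with more of the heme enzyme message thus had less of the class II and B cell messages in these samples. This missed the adjusted threshold in the deposited values. AHSP and HBB were not paired, so the relation was not tested for other red cell messages. With chip means removed, LW 15 had the highest ALAS2, 10.99, but an AHSP of 16.92, in a range of 16.36 to 18.25. LW 07, next in ALAS2 at 10.96, had an AHSP of 18.17. HBB was at 17.26 in LW 15 and 17.52 in LW 07, in a range of 16.60 to 18.25. ALAS2 with SLA-DRA passed with the quantile normalisation redone from the scanner signals, over 21 or over 11 arrays, and with the slope on array brightness removed. Its adjusted p by the permutation was 0.0443 each time, the lowest that a lone pair could reach. Without LW 22, ALAS2 with SLA-DRA, ALAS2 with CD79B and CD79B with SLA-DRA (r = 0.921) passed, each at an adjusted p of 0.0443. No pair passed with 75th percentile scaling (smallest adjusted p 0.0738), without removal of chip means (0.107) or with only the brightest probe of each gene (0.133).

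CD79B and SLA-DRA rose and fell together over the pigs at r = 0.871 (exact p = 0.00608, adjusted p = 0.155; rho = 0.909, exact p = 0.00637, adjusted p = 0.236), with r = 0.826 without the farthest pigs. CCR3, a chemokine receptor of eosinophils, with SOX13, a transcription factor of gamma delta T cells, had r = -0.638 (exact p = 0.00203, adjusted p = 0.103; rho = -0.773, exact p = 0.00926, adjusted p = 0.236) and -0.629 without the farthest pigs. ALAS2 with CD3E had r = -0.760 (exact p = 0.00289, adjusted p = 0.106; rho = -0.818, exact p = 0.00492, adjusted p = 0.236) and -0.581 without the farthest pigs. GZMA, a granzyme of killer cells, with NDUFA1, a respiratory chain subunit, had r = 0.752 (exact p = 0.00347, adjusted p = 0.106; rho = 0.773, exact p = 0.0081, adjusted p = 0.236) and 0.795 without the farthest pigs. None of these passed the adjustment. CCR3, SOX13 and NDUFA1 also had a single probe each, and CD3E did not pass the probe test (adjusted p = 0.129).

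**Figure D5:**
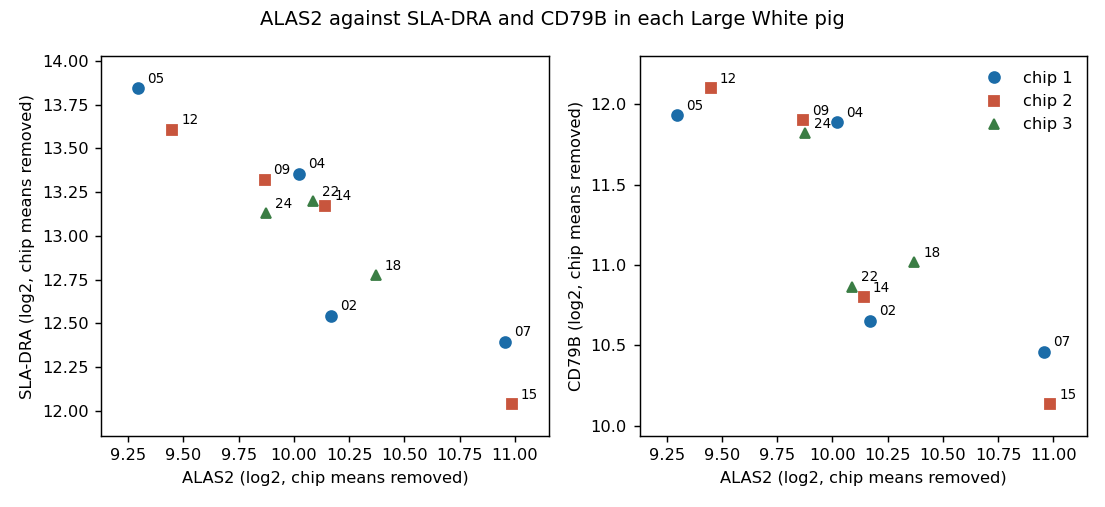
Each point is 1 LW pig, labelled by its number and marked by chip, with ALAS2 on the x axis and SLA-DRA (left) or CD79B (right) on the y axis, all in log2 with chip means removed. The points fall from LW 05 and LW 12 at upper left to LW 07 and LW 15 at lower right, with r = -0.935 and -0.865.

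The genes most like the 10 most variable ones, by Pearson's r of the chip-corrected values over 11 pigs, are given as a description, since each was the best of all genes. OAS1 was followed by ERCC2 (0.95), which did not pass the probe test (adjusted p = 0.603), OAS2 (0.91), a further synthetase of the same family, and NEIL2 (0.91). CXCL10 was followed by PPA1 (0.95) and LAP3 (0.95). SLPI was followed by LOC100512690 (0.98), IFRD1 (0.92) and WNT10B (0.91). MYB was followed by FABP6 (0.99), SATB1 (0.98) and IL20RB (0.98), and LW 24 was the highest pig for all 4 of these genes.

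REXO2 was followed by CAPN5 (0.96) and SLC38A5 (0.95), GPX3 by CEP78 (0.96), ZNF37A (0.95) and CENPM (0.95), and OAZ3 by MATK (0.93), TUFT1 (0.93) and GBGT1 (0.92). LOC100519082 was followed by LDLRAD3 (0.95), of which a kept probe was above background on none of the arrays, DNAJB2 (0.87) and GPX1 (0.86). CD1.1 was followed by PC (0.98), RYR1 (0.97) and PRSS3 (0.95), and LY49 by DLG3 (0.91), FSCN1 (0.91) and RPL38 (0.91). Without LW 24, the SD of CD1.1 fell from 1.23 to 0.79, PC from 0.221 to 0.154, RYR1 from 0.263 to 0.205 and PRSS3 from 0.682 to 0.346. SLC38A5, CENPM, DNAJB2, IFRD1, PC and RPL38 did not pass the probe test (adjusted p = 0.203, 0.0843, 0.165, 0.277, 0.402 and 0.598), and a kept probe of RYR1 was above background on none of the arrays. The pigs, litters and chips are shared by all these values.

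Over all genes, the first 3 principal components held 32%, 21.2% and 13.7% of the variance within chips. On the first, LW 15 and LW 07 lay at the low end and LW 05 and LW 12 at the high end. All 9 SLA class II genes, 15 of 16 B cell genes, 18 of 21 T cell genes and 67 of 73 ribosomal protein genes had positive weights on it, and 7 of 30 erythroid genes, against 55.8% of all genes. On the second, LW 24 and LW 07 lay low and LW 22 and LW 05 high, and LW 24 held 38.3% of its sum of squares.

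The correlation of array brightness with the components did not pass the adjustment, with r = 0.664 for the first (exact permutation p = 0.057, adjusted over 3 components p = 0.0855; rho = 0.464, exact p = 0.205, adjusted p = 0.307) and r = 0.682 for the second (exact p = 0.0379, adjusted p = 0.0855; rho = 0.573, exact p = 0.109, adjusted p = 0.307). Without LW 07 and LW 05, whose brightness was farthest from the median, r was 0.33 and 0.446. For the third component r was 0.101 (exact p = 0.769, adjusted p = 0.769; rho = 0.136, exact p = 0.717, adjusted p = 0.717), but 0.844 without these pigs. The part of brightness in the variation among pigs was not tested beyond the removal of its slope, under which 2093 genes passed the probe test.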

How the data were processed

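RNA was hybridised to a custom Agilent pig array and scanned with Agilent Feature Extraction 10.7.3.1, as the submitters' processing notes state. The authors corrected the intensities with normexp, took log2 and quantile-normalised them with limma, and the deposited matrix holds these log2 values. The deposited scanner intensities gave background flags, brightness and alternative normalisations. The 10 columns of the other breed were not used in any result, except in the quantile step over 21 arrays.

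Of 60305 probes, 29961 had a gene name, from the scanner annotation and RefSeq accessions; 53 with conflicting names stayed unnamed. The 25% dimmest probes over the LW arrays were removed and probes averaged per gene. SDs, the probe test, permutations (all 3456 orders within chips) and components were computed in Python 3.11.15 with scipy 1.17.1, and tests over chips and litters in limma 3.58.1 on R 4.3.3, with Benjamini-Hochberg adjustment. Tests were tested on simulated data. Array number limits the precision, as does low signal for dim probes.

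Named were the 15 brightest genes, the 20 with the largest SD that passed the probe test with every kept probe above background on at least 6 arrays, 10 seen on 3 to 8 arrays, the 5 steadiest, the 3 nearest genes of each of the first 10, the anchors and up to 4 members of each list, and the markers. Genes of single pigs, littermates and T cell development were chosen after their values were seen. Members and lists were chosen with earlier results of these data known. Some genes that these rules name are not reported here. Chromosome positions are RefSeq, Sscrofa11.1. Littermates are related, so pigs are not fully independent.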

Additional observations from a re-analysis of the deposited data

How the results depend on the processing

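The number of genes passing the probe test stayed within 1.5 times of 2490 under all alternatives run (1780 to 2548; 2215 to 2514 with single pigs left out; 2006 with equal sequences averaged, an alternative added after seeing the data). The number with an SD above 1 (99) was 581 with 75th percentile scaling, 34 with a normexp offset of 50, 42 with probes above background on all arrays, 255 without removal of chip means, 162 without chip 1 and 149 without chip 2, and 91 to 123 with single pigs left out. The median SD was 0.368 with 75th percentile scaling, 0.181 with the offset and 0.334 without removal of chip means, and 0.256 to 0.282 with single pigs left out. The share of the first component was 39.5% without removal of chip means, 42.4% without chip 1, 41.1% without chip 3 and 30.7% to 37.99% with single pigs left out. The number of marker pairs past the threshold was 1 with scanner values quantile-normalised over 21 arrays, 1 over 11 arrays and 1 with the brightness slope removed, and 0 to 3 with single pigs left out. With litter means it was 0. A lone pair could not go below an adjusted p of 0.212 with litter means, 0.177 without a pig of chip 1 or 2 and 0.133 without a pig of chip 3, so these counts say nothing about stability. With single pigs left out, an alternative added after seeing the data, genes that differed between chips numbered 202 to 2828 (0 with litter in the model, also added after seeing the data), and between litters 0 to 2. SDs of named genes moved by more than their standard error in 68 of 164 with 75th percentile scaling, 57 of 165 with the offset and 1 of 165 with either redone quantile normalisation. The cause of these shifts was not tested. No paired analysis was possible because a single breed was described and the labels give its pigs no replicate numbers shared between groups.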
